A study of Rattus norvegicus with 6 samples.

Results

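Collagen chain genes are described here in cells of rat long bone that had attached to osteopontin (OPN) or to prothrombin (PT). The members were all genes whose platform annotation gives a single symbol made of Col, a number, the letter a and a number. This gave 25 genes on 27 rows of the value table, of 14506 genes with a single symbol and 29215 rows in all. Col6a4 had 3 rows, of which the one brightest on average stood for it. Of 45 collagen chains listed for the 4 classes used below, the other 20, among them Col4a2, Col6a1, Col6a2, Col6a3, Col15a1 and Col18a1, were not named by the annotation and were not analysed here.

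Bone cells were extracted from Sprague Dawley rats 2 to 5 days old and left to adhere to multi-well plates coated with mouse PT, the precursor of the clotting protease thrombin, or with OPN from bovine milk, an acidic bone matrix protein that integrins bind. The labels name no genotype or drug for either group, and the cells attached to a coating were not sorted further, so each sample is a mixture. Each coating gave 3 arrays (Affymetrix Rat Gene 1.0 ST), numbered 1, 2 and 4 for PT and 2, 3 and 4 for OPN, and each value is a PLIER signal on a linear scale, a summary of the probes of a probe set. Nothing in the labels ties a sample to its own litter or culture, so every p-value here reflects scatter among these 6 arrays, part or all of it possibly technical.

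Most collagens are secreted proteins, and some span the cell membrane. Collagen chains wind around each other into a rope-like helix of repeated glycine triplets. Fibrillar collagens assemble end to end and side by side into the fibrils that carry the load in bone, cartilage and skin. Network collagens form sheets, with type IV as the scaffold of basement membranes, and the fibril-associated collagens with interrupted helices (FACIT) sit on the surface of fibrils. In bone, osteoblasts secrete type I collagen as the matrix that is later mineralised, and osteoclasts break it down.

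Collagen genes were higher on OPN or did not pass the test, and 0 of the 25 fell. The 11 that rose were 8 of the 10 fibrillar genes and 1 gene each of the other classes, Col4a1, Col12a1 and Col13a1. Fold differences ran from 9.79 for Col11a1, a cartilage-type fibrillar chain, to 1.26 for Col13a1, a collagen of the cell membrane. A gene was called at an adjusted p below 0.05 in limma's test, and with this rule 7.62% of all named genes were called higher and 1.12% lower. Over all rows 1475 were called higher and 225 lower, a split that became 1198 and 560 with equal array medians and 1360 and 745 with quantile normalisation. At a difference of at least 2-fold 8 collagen genes were called, where 1.63% of all named genes were. All 3 OPN arrays lay above all 3 PT arrays in 16 of the 25 genes, against 21.6% of all named genes, and in 0 genes did they lie below, against 8.77%.

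**Figure D1:**
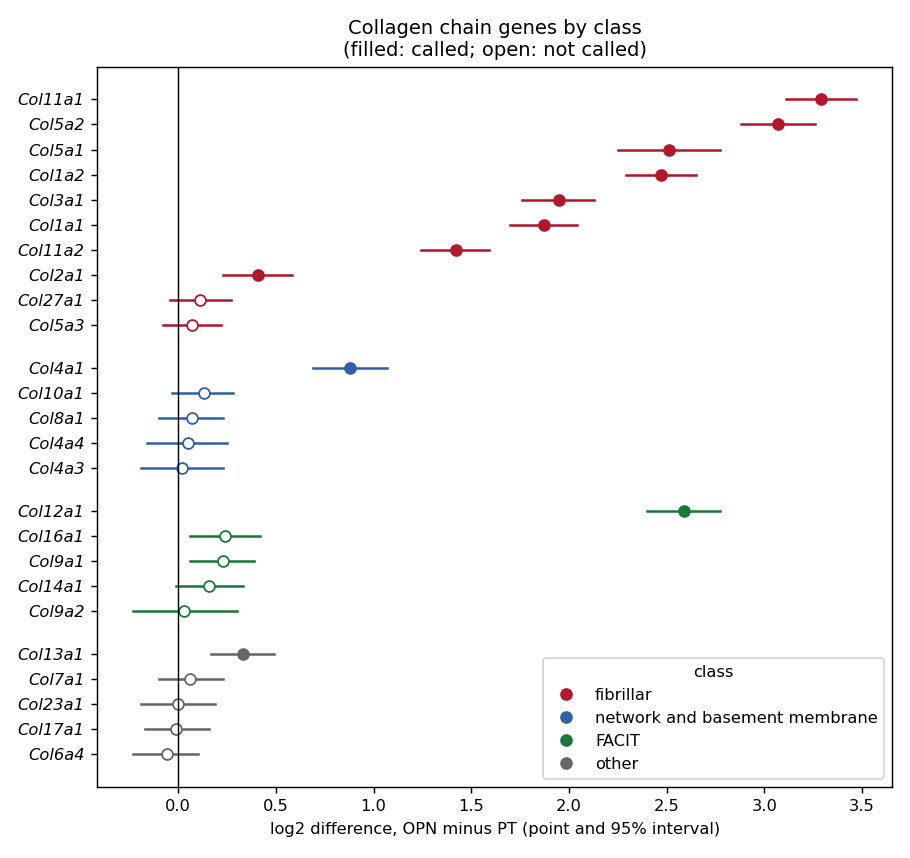
Difference in log2 signal between OPN and PT arrays for each of the 25 collagen genes (x axis, log2 units), by class, with its 95% interval from limma. Filled points mark the 11 called genes, of which 8 are fibrillar, and the 14 open points lie between -0.06 and 0.24.

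By class, the median log2 difference was 1.91 over the fibrillar genes (range 0.07 to 3.29), 0.07 over the network and basement membrane genes (0.02 to 0.88), 0.23 over the FACIT genes (0.03 to 2.59) and 0.00 over the others (-0.06 to 0.33). All named genes had a median of 0.04. Outside the fibrillar class, each class thus held 1 called gene of 5 measured (20.0%, against 7.62% of all named genes called higher). Outside that class only Col12a1 differed by at least 2-fold. Coverage was uneven, with 10 of 11 listed fibrillar chains analysed, 5 of 11 network, 5 of 10 FACIT and 5 of 13 other chains. How the chains not analysed differed is not known. Over the 25 genes the median was 0.23, and 7 of them stood among the 100 named genes with the highest differences.

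**Figure D2:**
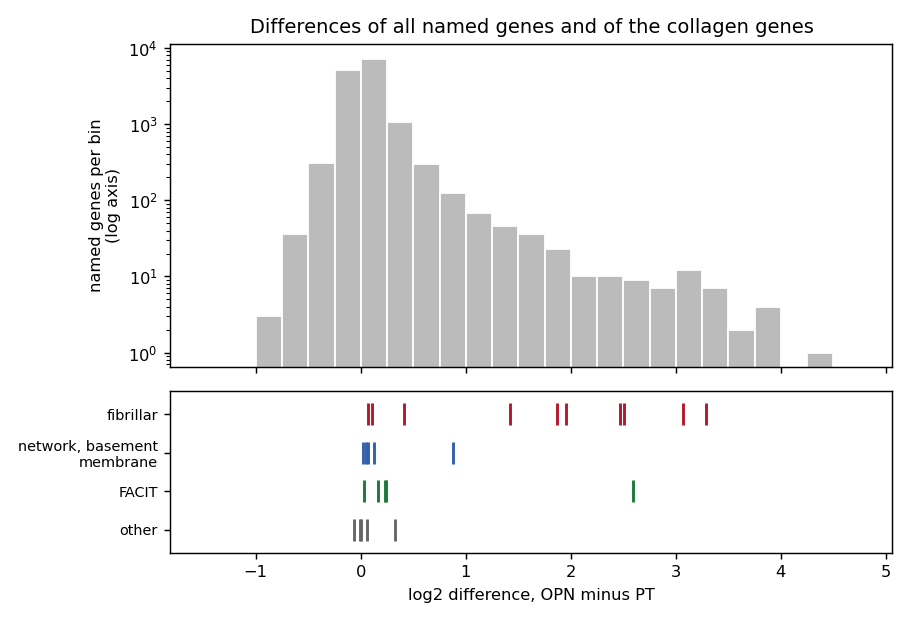
The upper panel counts named genes per bin of 0.25 in the log2 difference of OPN minus PT (log axis), and the lower panel marks each collagen gene at its own difference, by class. Of the 25 collagen genes 7 lie above 1.75, and 12 lie in the bin from 0 to 0.25 that also holds the most named genes, 7240.

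Type I collagen, the main protein of bone matrix, is built from the products of Col1a1 and Col1a2. Signals are given here and below for PT replicates 1, 2 and 4 and then for OPN replicates 2, 3 and 4. Col1a1 (probe set 10737532) had signals of 5805, 5506 and 5348 on PT and 19926, 21675 and 19357 on OPN. The lowest OPN array lay far above the highest PT array. The difference was 3.65-fold (log2 1.87, SE 0.07, adjusted p = 1.96e-06). Col1a2 (probe set 10853559) had 3289, 2908 and 3001 on PT and 16531, 18174 and 16498 on OPN, a 5.54-fold difference (log2 2.47, SE 0.08, adjusted p = 5.07e-07). In both genes all OPN arrays lay above all PT arrays. On the OPN arrays Col1a1 reached 72.4% to 76.2% of the highest signal on its array, and on the PT arrays 17.8% to 20.3%. Whether the top of the signal range limited its difference was not tested.

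Type III collagen, encoded by Col3a1, joins type I in the fibrils of skin, vessels and loose connective tissue. Its signals (probe set 10923052) were 269, 222 and 238 on PT and 975, 974 and 991 on OPN. The OPN arrays lay close together, and the difference was 3.86-fold (log2 1.95, SE 0.08, adjusted p = 2.54e-06).

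Type V collagen is buried within type I fibrils and sets their diameter. Col5a1 (probe set 10834731) had 159, 128 and 180.1 on PT and 906, 1009 and 956 on OPN, and relative to the mean its PT arrays spread more than those of any other collagen gene that rose (coefficient of variation 16.8%). It rose 5.71-fold (log2 2.51, SE 0.11, adjusted p = 3.81e-06). Its partner Col5a2 (probe set 10927728) had 275, 273 and 244 on PT and 2233, 2533 and 2231 on OPN. That is 8.38-fold higher (log2 3.07, SE 0.08, adjusted p = 2.34e-07), and only 22 named genes had a higher difference. The third type V gene, Col5a3, whose chain takes part in a rarer form of the trimer, had 272, 260.2 and 254 on PT and 284, 269 and 274 on OPN. Its arrays overlapped between the coatings, and it was not called (log2 0.07, 95% interval -0.08 to 0.22, adjusted p = 0.69).

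Type XI collagen plays the part of type V in cartilage, where it lies within type II fibrils. Col11a1 (probe set 10818502) had 217, 191 and 196 on PT and 2073, 2233 and 2021 on OPN. This was the highest difference among the collagens, 9.79-fold (log2 3.29, SE 0.08, adjusted p = 1.28e-07), and 13 named genes exceeded it. Col11a2 (probe set 10831648) had 270.4, 269.7 and 288 on PT and 749, 825 and 717 on OPN, 2.67-fold higher (log2 1.42, SE 0.08, adjusted p = 1.07e-05).

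Col2a1, the gene of type II collagen of cartilage and also the source of a chain of the type XI trimer, moved far less. Its signals (probe set 10906746) were 814, 725 and 714 on PT and 989, 1017 and 990.0 on OPN. The arrays did not overlap. The gene rose 1.32-fold (log2 0.41, SE 0.07, adjusted p = 0.0141). The call was lost without PT replicate 2 (adjusted p = 0.0547), PT replicate 4 (0.0506), OPN replicate 2 (0.0588) or OPN replicate 3 (0.0726). Adjusted p was 0.114 with the replicate number as a block, a fit that takes the difference from replicates 2 and 4 alone. Col27a1, a fibrillar collagen of developing cartilage, had 346, 336 and 315 on PT and 366, 355 and 359.6 on OPN. Its OPN arrays lay above its PT arrays, but the difference was not called (log2 0.11, 95% interval -0.04 to 0.27, adjusted p = 0.473).

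**Figure D3:**
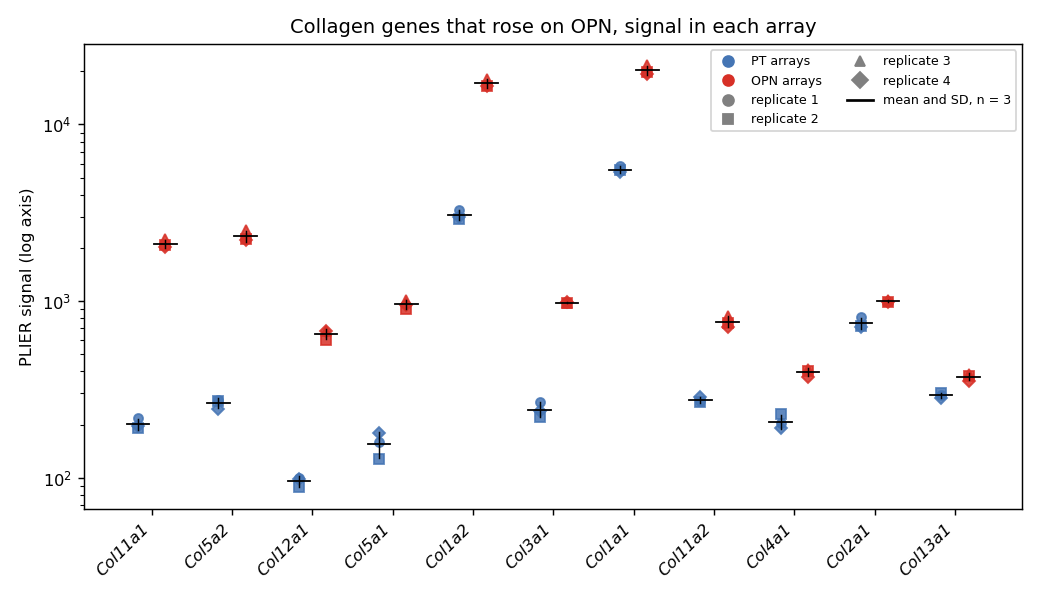
PLIER signal (log axis) of the 11 collagen genes that rose, with PT arrays in blue and OPN arrays in red, a marker shape for each replicate number, and the mean with SD of 3 arrays in black. In each gene the 3 OPN arrays lie above the 3 PT arrays, and the gap narrows from Col11a1 at the left to Col13a1 at the right.

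The differences of chains from related collagen types were compared within each array in 8 pairs, a test that cannot reach 0.05 with 3 arrays per coating. The log2 difference of Col1a2 was 0.60 above that of Col1a1, and the SD of the within-array difference was 0.05 over the PT arrays and 0.02 over the OPN arrays. That of Col5a2 was 0.55 above that of Col5a1 (SD 0.30 and 0.05) and that of Col11a1 1.88 above that of Col11a2 (SD 0.11 and 0.03). Against the type II gene the gap was wider, with Col11a1 2.89 above Col2a1 (SD 0.03 and 0.05), and Col5a1 lay 2.44 above Col5a3 (SD 0.24 and 0.11). In each of these 5 pairs the arrays did not overlap between the coatings, and p was 0.1 in an exact permutation test (two-sided), a floor set by having 3 arrays per coating, or 0.13 adjusted over the 8 pairs compared. Col3a1 and Col5a2 are neighbours on their chromosome, with 0 protein-coding genes between them in RefSeq's GRCr8 annotation. The log2 difference of Col5a2 was 1.12 above that of Col3a1 (SD 0.14 and 0.11, exact p = 0.1, adjusted 0.13). The type IV pair Col4a4 and Col4a3 differed by 0.03 and the type IX pair Col9a1 and Col9a2 by 0.19, both with overlapping arrays (exact p = 0.8 and 0.4, adjusted 0.80 and 0.46). The part of probe response in these values was not tested.

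Of the network and basement membrane genes, Col4a1 alone was called. Its product pairs with that of Col4a2, not analysed here, in nearly all basement membranes. Col4a1 (probe set 10789594) had 203, 229 and 192 on PT and 404, 409.8 and 374 on OPN. It rose 1.84-fold (log2 0.88, SE 0.08, adjusted p = 3.35e-04), less than 2-fold, and 281 named genes had a higher difference. Col4a3 and Col4a4, whose chains belong to the basement membrane of the kidney glomerulus, were at or near 0 difference. Col4a3 had 213, 217 and 195 on PT and 226, 224 and 186 on OPN (log2 0.02, 95% interval -0.19 to 0.23, adjusted p = 0.944). Col4a4 had 170.5, 137 and 163 on PT and 171, 159.7 and 156 on OPN (log2 0.05, 95% interval -0.16 to 0.25, adjusted p = 0.85). With equal array medians or quantile normalisation both came out below 0.

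Col10a1, the marker collagen of hypertrophic chondrocytes, had 155, 143 and 142 on PT and 159, 164 and 162 on OPN. The arrays did not overlap, yet the difference of 0.13 on the log2 scale was not called (95% interval -0.03 to 0.28, adjusted p = 0.382). Col8a1, a short-chain network collagen of vessel walls and the cornea, had 130.3, 119 and 137 on PT and 133, 137 and 136 on OPN, with overlapping arrays (log2 0.07, 95% interval -0.10 to 0.23, adjusted p = 0.724).

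Among the FACIT genes, Col12a1 was the 1 that was called. Its product lines type I fibrils in bone, tendon and ligament. Col12a1 (probe set 10918869) had 100.1, 88.1 and 97.8 on PT and 602, 680.4 and 675 on OPN. It rose by 2.59 on the log2 scale (SE 0.08, adjusted p = 4.35e-07), and 38 named genes had a higher difference. The offset of 16 added before the logarithm shrinks the differences of rows with low signals such as this one, and with an offset of 1 the log2 difference was 2.76. Col14a1, whose product binds type I fibrils in the same way, had 134, 114 and 129 on PT and 143, 141 and 144 on OPN and was not called (log2 0.16, 95% interval -0.01 to 0.33, adjusted p = 0.315).

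The type IX chains coat type II fibrils in cartilage. Col9a1 had 198, 201 and 189 on PT and 227, 221 and 249 on OPN (log2 0.23, 95% interval 0.06 to 0.39, adjusted p = 0.136), and Col9a2 had 252, 176 and 201 on PT and 214, 205 and 219 on OPN (log2 0.03, 95% interval -0.23 to 0.30, adjusted p = 0.927). The arrays of Col9a1 did not overlap, and those of Col9a2 did, with the lowest and the highest value both on PT. Col16a1, a FACIT collagen of several connective tissues, had 437, 407 and 386 on PT and 503, 502 and 455 on OPN (log2 0.24, 95% interval 0.06 to 0.42, adjusted p = 0.141). Col9a1 and Col16a1 were the 2 uncalled members whose unadjusted p lay below 0.05.

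The remaining collagens are made up of anchoring, transmembrane and filament-forming types. Col13a1, a transmembrane collagen of cell contacts (probe set 10833104), had 295, 300.2 and 283 on PT and 378, 387 and 354 on OPN. It rose 1.26-fold (log2 0.33, SE 0.07, adjusted p = 0.0265). This call was lost with equal array medians (adjusted p = 0.0578), with the replicate number as a block (0.294) and without PT replicate 1 (0.0617), PT replicate 2 (0.0603), PT replicate 4 (0.0793), OPN replicate 2 (0.118) or OPN replicate 3 (0.127). Its arrays nevertheless did not overlap between the coatings.

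Col17a1 and Col23a1 are transmembrane collagens as well, the first known from the attachment of epidermis. Col17a1 had 253, 226 and 228 on PT and 229.8, 239 and 235 on OPN (log2 -0.01, 95% interval -0.17 to 0.16), and Col23a1 had 408, 371 and 348 on PT and 402, 366 and 360.2 on OPN (log2 0.00, 95% interval -0.19 to 0.19). The arrays of both genes overlapped, and neither was called (adjusted p = 0.982 and 0.995). Col7a1, the anchoring fibril collagen of skin, had 316, 294 and 282 on PT and 306, 320.0 and 308 on OPN (log2 0.06, 95% interval -0.10 to 0.23, adjusted p = 0.739). Col6a4, a chain of the beaded filaments of type VI, had 269.6, 251 and 278 on PT and 263, 255 and 245 on OPN (log2 -0.06, 95% interval -0.23 to 0.10, adjusted p = 0.747). Its other rows gave 0.03 and 0.08, so its 3 rows disagreed in sign, and none was called.

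**Figure D4:**
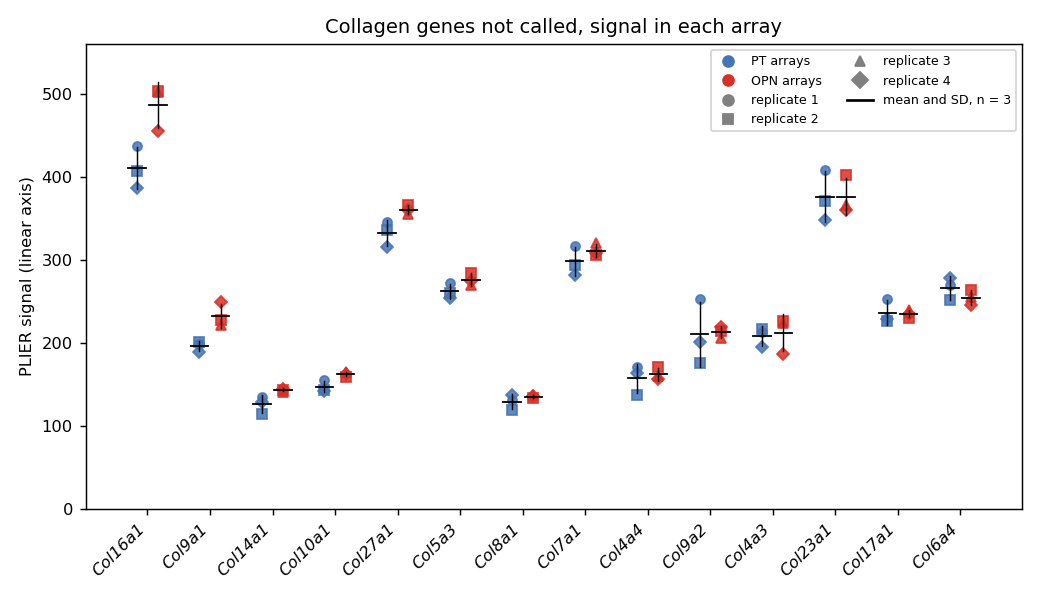
PLIER signal (linear axis) of the 14 collagen genes that were not called, drawn as in the plot of the genes that rose. The means lie between 126 and 410.1 on PT and between 135 and 487 on OPN, and in 9 of these genes the arrays of the coatings overlap.

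For the 14 uncalled genes the 95% intervals bound the difference. The highest upper limit, that of Col16a1, corresponds to 1.34-fold, and the lowest lower limit to 1.18-fold in favour of PT. A p that missed the threshold does not show that these genes were equal on the coatings. No detection calls were used, so it is not known which of these rows lay above background, and signal from background pulls a difference toward 0.

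Among the OPN arrays, replicate 3 was the highest in 10 of the 11 genes that rose, the exception being Col3a1, and in 8 of 11 with the array medians made equal, while OPN replicate 4 was highest in 1 and 3. OPN replicate 3 was also the highest in 61.0% of the 1105 named genes called higher and in 43.7% of all named genes. Below it the order varied, with OPN replicate 2 above replicate 4 in Col1a1 and below it in Col5a1 and Col12a1. The median signal of OPN replicate 3 over all rows, 227.3, lay between the 231.4 of OPN replicate 2 and the 218.4 of OPN replicate 4. The spread was small beside the differences, since the coefficient of variation of these genes ran from 0.974% to 7.47% on OPN and from 3.06% to 16.8% on PT.

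Promoters are shown for 4 of the genes that rose, to set a chain each of types I, V and XI beside the 1 called network gene, a choice made with their differences known. They come from RefSeq (GRCr8) and run from 250 bases before the annotated gene start to 50 after it, read 5′ to 3′ on the strand of the gene. Col1a2 lies at chr4:33518307-33518606 on the plus strand, Col5a2 at chr9:55090102-55090401 on the minus strand, Col11a1 at chr2:204508886-204509185 on the plus strand and Col4a1 at chr16:84885347-84885646 on the plus strand. Capitals mark the TATA box, searched as TATAAA, the CCAAT box, searched by these letters, and the GC box, searched as GGGCGG, each on either strand, and no marked motif overlapped another.
Col1a2: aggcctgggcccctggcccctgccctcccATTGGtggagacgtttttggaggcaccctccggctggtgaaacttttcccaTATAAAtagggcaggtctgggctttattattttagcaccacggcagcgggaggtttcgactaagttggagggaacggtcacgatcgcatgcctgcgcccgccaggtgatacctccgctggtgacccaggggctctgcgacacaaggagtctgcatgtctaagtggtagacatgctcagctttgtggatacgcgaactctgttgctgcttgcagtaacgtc
Col5a2: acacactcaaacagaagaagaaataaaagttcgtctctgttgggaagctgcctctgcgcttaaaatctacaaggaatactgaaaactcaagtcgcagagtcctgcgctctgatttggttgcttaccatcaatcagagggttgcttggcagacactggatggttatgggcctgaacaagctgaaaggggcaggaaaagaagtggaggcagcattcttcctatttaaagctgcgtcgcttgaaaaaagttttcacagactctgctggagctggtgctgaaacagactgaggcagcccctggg
Col11a1: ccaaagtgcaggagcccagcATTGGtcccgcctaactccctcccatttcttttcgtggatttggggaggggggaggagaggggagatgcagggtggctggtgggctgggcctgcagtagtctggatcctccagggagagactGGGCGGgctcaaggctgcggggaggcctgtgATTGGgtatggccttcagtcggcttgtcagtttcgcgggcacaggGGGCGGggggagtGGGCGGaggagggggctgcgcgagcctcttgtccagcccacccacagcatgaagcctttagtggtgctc
Col4a1: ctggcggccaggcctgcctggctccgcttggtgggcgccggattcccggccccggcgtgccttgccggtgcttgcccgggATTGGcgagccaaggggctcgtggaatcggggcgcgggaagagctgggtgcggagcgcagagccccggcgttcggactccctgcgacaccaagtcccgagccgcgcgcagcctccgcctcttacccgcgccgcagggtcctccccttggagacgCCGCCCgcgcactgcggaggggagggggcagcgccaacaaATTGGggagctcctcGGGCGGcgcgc

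The 4 promoters did not share a set of these motifs. Col1a2 held a TATA box, which began 170 bases before the annotated start, and a CCAAT box on the minus strand. The 50 bases after that start open with a start codon, so the annotated start of Col1a2 may be that of translation, not transcription. Motif positions in the 4 promoters may therefore not be counted from the same kind of start. Col11a1 held 2 CCAAT boxes and 3 GC boxes and no TATA box, Col4a1 held 2 CCAAT boxes and 2 GC boxes, and Col5a2 held none of the 3 motifs. Promoters of 20 of the 25 genes were matched by symbol. Those of Col1a1, Col2a1, Col3a1, Col12a1 and Col14a1 were not. The TATA box was present in 2 of the 7 matched genes that rose and 2 of the 13 that were not called, the CCAAT box in 3 and 4, and the GC box in 4 and 7. Each member was counted by a single promoter. Of all 33469 promoters, possibly several per gene, 14.2% held the TATA box, 37.5% the CCAAT box and 33.1% the GC box. The starts of Col4a1 and Col4a2 lie 77 bases apart on opposite strands and those of Col4a3 and Col4a4 413 bases apart. The Col4a3 and Col4a4 pair was uncalled at both genes, while of the Col4a1 and Col4a2 pair Col4a1, measured alone here, rose.

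Most measured genes of collagen synthesis were higher on OPN as well. Of 14 measured genes of prolyl and lysyl modification 10 rose and 0 fell (median log2 difference 0.64). They were led by Plod2 (2.82), which hydroxylates lysines of the chain ends, Crtap (2.15) and P3h1 (1.51) of the prolyl 3-hydroxylase complex, and P4ha1 (1.19), a catalytic subunit of prolyl 4-hydroxylase. Plod1, another lysyl hydroxylase, gave -0.02 without a call. Of 10 genes of folding and export 9 rose and 0 fell (median 1.49). Those with the smallest p were the collagen chaperone Serpinh1 (3.43), the prolyl isomerases Fkbp10 (3.10) and Fkbp7 (2.35) and the transcription factor Creb3l1 (1.59). Klhl12, an adaptor for loading large cargo, gave -0.19 without a call, and quantile normalisation brought its adjusted p to 0.0385. Of 11 genes of propeptide processing and cross-linking 8 rose and 0 fell (median 1.09), led by the cross-linking enzyme Lox (3.32), the enhancer protein Pcolce (3.03), the proteinase Bmp1 (2.13) that cuts C-propeptides and the N-propeptidase Adamts2 (1.30).

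Genes that bind or degrade collagen also differed. Of 10 measured collagen receptor genes 7 rose and 1 fell (median 0.59). The receptor kinase Ddr2 (1.99), the uptake receptor Mrc2 (1.56) and the integrin chain Itgb1 (0.72) rose, and the mannose receptor Mrc1 (-0.79), which also stands in the macrophage list, fell. With the replicate number as a block 4 receptor genes were called higher, and with 1 array left out 5 to 6. Of 11 genes of collagen breakdown 6 rose and 0 fell (median 2.05), with Ctsk (4.35) and Mmp9 (2.90), proteases of osteoclasts that are also in that marker list, the collagenase Mmp13 (3.81) and the membrane protease Mmp16 (2.28). Pepd (-0.24), which splits proline dipeptides, and the collagenase Mmp1 (-0.01) lay below 0 without a call, and 1 gene of this list, Pepd, was called lower with equal medians (adjusted p = 0.0345), with quantile normalisation (0.0236) or with an intensity trend in the prior variance (0.0181).

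Among genes of the fibril surface and of basement membranes, about as many rose as were not called. Of 13 fibril-associated genes 7 rose and 0 fell (median 1.03), among them Sparc (3.13), which binds collagen and mineral, and the small proteoglycans Bgn (3.18), Lum (3.31) and Dcn (3.04). Dpt, an organiser of dermal fibrils, gave -0.16 without a call. Of 8 basement membrane partners 4 rose and 0 fell (median 0.34), the laminin chains Lamb2 (1.45) and Lamc1 (0.68), Sparcl1 (0.59), a relative of Sparc, and the proteoglycan Agrn (0.40), while the laminin chain Lama1 gave -0.08. The call of Agrn was lost without PT replicate 2 (adjusted p = 0.0657), OPN replicate 2 (0.092) or OPN replicate 3 (0.0917). With the replicate number as a block 1 of the 8 was called, the calls of Agrn (adjusted p = 0.227), Lamc1 (0.0579) and Sparcl1 (0.0759) being lost, and with 1 array left out 3 to 5 were.

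**Figure D5:**
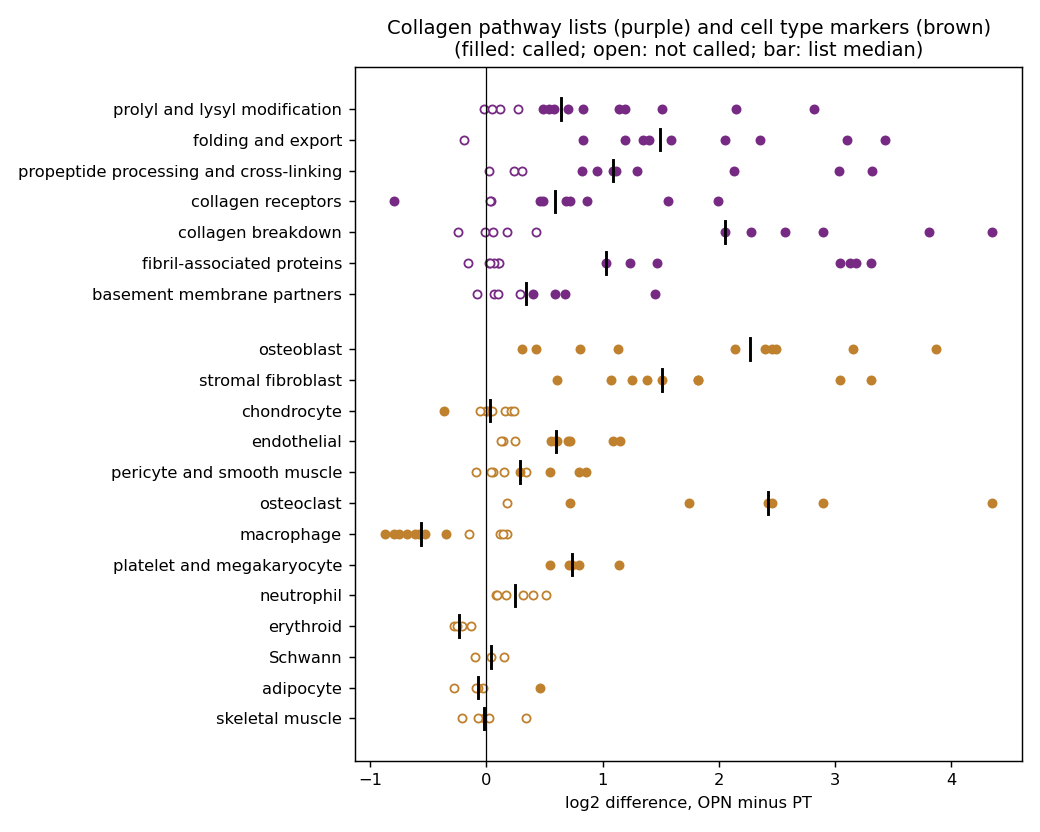
Log2 difference of OPN minus PT (x axis) for each measured gene of 7 collagen pathway lists and 13 cell type marker lists, with the list median as a black bar. The medians of the osteoclast, osteoblast and collagen breakdown lists, 2.42, 2.27 and 2.05, lie farthest to the right, and that of the macrophage list, -0.56, farthest to the left.

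Markers of the cells that secrete fibrillar collagen moved on the same arrays. All 10 measured osteoblast markers rose (median 2.27), and their summed signal was 1753 to 2147 on PT and 12048 to 13754 on OPN. The peptidase Phex (3.15), osteocalcin (Bglap, 2.46) and the sialoprotein Ibsp (3.87) had the smallest p. Of these 10, 8 to 9 were called with 1 array left out, 8 with the replicate number as a block, and 9 with equal array medians or an intensity trend in the prior variance. All 9 stromal fibroblast markers rose as well (median 1.51), with Lum and Dcn, which are also in the fibril list, and the chemokine Cxcl12 (1.82), and their sum was 1656 to 1835 on PT and 5710 to 6237 on OPN. Of these 9, 8 to 9 were called with 1 array left out and 8 with the block. The lowest single value of these markers was 40.9. Without detection calls it is not known which of their PT values lay above background. The part of these cells in the collagen differences was not tested, and in such mixtures fewer cells of a type and less RNA per cell cannot be told apart.

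No chondrocyte marker was called higher beside the cartilage-type collagen chains. Of 9 measured, 0 rose and 1, the transcription factor Sox6 (-0.36), fell. The call of Sox6 was lost without OPN replicate 2 (adjusted p = 0.07) and under the replicate block (0.183), and the median of 0.03 turned to -0.04 with equal array medians and -0.05 with quantile normalisation. The link protein gene Hapln1 (0.24) and the matrilin gene Matn3 (0.21) were not called. The list's summed signal was 3820 to 3992 on PT and 3607 to 3865 on OPN, beside the rises of Col11a1, Col11a2 and Col2a1 given above. The largest part of this sum was Ihh, with means of 1497 on PT and 1449 on OPN, and Sox6 had means of 691 and 533. Other collagen genes of cartilage, Col9a1 (0.23), Col9a2 (0.03), Col10a1 (0.13) and Col27a1 (0.11), were not called. The call of Col2a1 held in 9 of 14 alternative settings. The part of chondrocytes in the rises of Col11a1, Col11a2 and Col2a1 was not tested.

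Beside Col4a1, the endothelial markers Kdr (1.15), Tek (1.09) and Plvap (0.61) rose with 4 others of 10 (median 0.60), their summed signal lying at 2041 to 2166 on PT and 3069 to 3246 on OPN. Of 9 pericyte and smooth muscle markers 4 rose (median 0.29), led by Rgs5 (0.86), Notch3 (0.80) and Mcam (0.55), with sums of 7692 to 8329 and 8541 to 9207. Whichever array was left out, 3 of them were called, as with equal array medians or quantile normalisation. Under the replicate block 2 were, the call of Mcam being lost (adjusted p = 0.0506). Of the 5 not called, Acta2 (0.06), Tagln (0.15), Myh11 (0.04) and Cnn1 (-0.09) had overlapping arrays. Acta2 alone, with a mean signal of 6482 on PT and 6753 on OPN, made up most of the sum. The part of vessel cells in the rise of Col4a1 was not tested. The osteoclast markers, 6 of 7 of which rose (median 2.42), included Ctsk, Mmp9 and Acp5 (2.46), the phosphatase gene that names the TRAP-positive cells of the study, with a mean signal of 856 on PT and 4782 on OPN. Their sum was 2788 to 2949 on PT and 20321 to 22877 on OPN. Macrophage markers mostly went the other way, 8 of 12 falling and 0 rising (median -0.56), with Cd163 (-0.87), Mrc1 and C1qa (-0.75) foremost. Their sums were 14193 to 14941 on PT and 10183 to 10900 on OPN. Of the 4 not called, Cd68 (0.18), Vsig4 (0.14) and Csf1r (0.12) lay above 0. All 3 OPN arrays of Cd68 lay above all 3 PT arrays. All 5 platelet and megakaryocyte markers rose (median 0.74), among them Selp (1.14), Pf4 (0.80) and Gp1ba (0.71). Under the replicate block 5 endothelial and 4 platelet markers were called higher and 7 macrophage markers lower. Neutrophil, erythroid, Schwann and skeletal muscle markers held 0 called genes of 6, 4, 3 and 5. Without PT replicate 4, however, 3 of the 6 neutrophil markers were called higher (median 0.37, against 0.25 with all arrays), and 1 erythroid marker was called lower with equal array medians. Of 5 adipocyte markers Lpl (0.46) rose, a call lost without OPN replicate 3 (adjusted p = 0.0546) and under the replicate block (0.0871), and 1 was called lower with quantile normalisation or an intensity trend in the prior variance.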

How the data were processed

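Expression was measured in 3 OPN and 3 PT samples with Affymetrix Rat Gene 1.0 ST arrays. Groups and replicate numbers come from the sample titles. The deposited values are linear intensities, 1 per probe set and array, made with Affymetrix Expression Console and PLIER per the submitters' processing notes. The background step, any scaling between arrays, software versions and the build are not given here by any label or header. Array medians lay between 207.8 and 231.4, correlations across rows were at least 0.988 within a coating and at most 0.979 between coatings. Precision is limited by the small number of arrays.

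Rows were named through the platform annotation, which gives 15310 rows a single symbol, 323 several and the rest none. Entrez identifiers matched the GRCr8 gene table for 15279 of them and changed 0 symbols. A gene with several rows is represented by the row with the highest mean. Values were transformed as log2(intensity + 16), so fold differences are on this scale and understate dim rows. lmFit and eBayes of limma 3.58.1 (R 4.3.3) were fitted to all 29215 rows with no filter or block, with Benjamini-Hochberg adjustment over all rows, a threshold of 0.05 and two-sided tests. The fit was also run on simulated rows with independent noise and no shift between arrays, so that run does not cover such shifts. SE and 95% intervals are those of eBayes. SD are of the linear signal over 3 arrays, except for chain pairs, where they are of log2 differences.

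The collagen members, classes and gene lists were chosen with earlier results of these data known. All members are named. For the pathway lists the text names up to 4 genes with the smallest p and those opposing the list. For marker lists it names up to 3, and some uncalled genes besides. Alternatives changed 1 choice at a time: the offset, the scaling of arrays, a filter on dim rows, the mean over a gene's rows, the prior variance, the replicate number as a block, and each array left out. Moving the chains Col15a1 and Col18a1 between classes gave no value, since neither was named. Protein features of the chains were not analysed here.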

Additional observations from a re-analysis of the deposited data

How the results depend on the processing

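Under 14 alternatives to the settings above, 9 of the 11 collagen genes that rose were called each time, Col2a1 was called in 9 and Col13a1 in 7, and 0 collagen genes were called lower. Of all 29215 rows 225 were called lower with the main settings, 560 with equal array medians, 745 with quantile normalisation and 508 with an intensity trend in the prior variance, and when 1 array was left out 928 to 1357 were called higher and 95 to 181 lower. With equal medians and quantile normalisation the median log2 difference became 0.16 and 0.16 over the 25 collagens, 0.0016 and 0.01 over the network genes, 0.16 and 0.16 over the FACIT genes and -0.06 and -0.07 over the other collagens, whose median was 0.08 with the replicate block and -0.03 to 0.06 when 1 array was left out. Of these other collagens 0 were called higher with equal medians, 0 with the replicate block and 0 to 1 when 1 array was left out.

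Genes near 0 changed sign, each without a call. With equal medians Col4a3 gave -0.04, Col4a4 -0.02, Col9a2 -0.03, Col7a1 -0.0022 and Col23a1 -0.06. With quantile normalisation Col5a3 gave -0.01, Col4a3 -0.04, Col4a4 -0.01, Col9a2 -0.04, Col7a1 -0.02 and Col23a1 -0.08. Col6a4 gave 0.02 with the mean over its rows. Leaving out 1 array at a time gave -0.03 to 0.11 for Col4a3, -0.04 to 0.11 for Col4a4, -0.08 to 0.17 for Col9a2, -0.03 to 0.04 for Col17a1, -0.05 to 0.06 for Col23a1, -0.05 to 0.02 for Plod1 and -0.06 to 0.04 for Mmp1. The causes were not tested.

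The shared replicate numbers 2 and 4 did not pair the samples by the labels, and the correlation of deviations from the group means over all rows was -0.082 between PT and OPN replicate 2 and 0.068 between PT and OPN replicate 4. The replicate block took each difference from replicates 2 and 4 alone, since every other number occurs on a single coating. It rests on fewer arrays, so a call lost under it can come from that alone. With the replicate block 618 rows were called higher and 48 lower, and 9 of the 11 collagen genes were still called. Under it Col4a3 gave -0.0006, Col17a1 0.03 and Mmp1 0.01. The filter on a mean signal of at least 64 left out 0 collagen genes. What share of the dim rows lay above background is unknown, which limits what the uncalled genes can show.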
